A study of Homo sapiens with 8 samples.

Results

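SQ20B is an established human cell line from a head and neck squamous cell carcinoma. Its polyadenylated RNA was sequenced from 4 replicates kept in normoxia (standard culture oxygen) and 4 replicates kept in hypoxia (0.5% O2 for 16 h). The sample labels name no added interferon, virus or drug in either condition. The values are given as 1 FPKM per condition over its 4 replicates (a fragment count corrected for transcript length and library depth), so there is no spread between replicates, no test and no interval anywhere below. The genes described are 40 interferon-stimulated genes, given as a list of names, with no threshold on their values in the rule. Of these, 39 had at least 1 row among the 24812 transcripts listed, with 74 transcripts between them, and EPSTI1 was not analysed here. FPKM values were added over the listed transcripts of each gene, which gave 14528 named genes. The comparison set is the 12120 genes whose FPKM averaged 0.5 or more between the conditions, and all 39 members with rows passed that limit. A change is the log2 of (hypoxia FPKM + 0.1) over (normoxia FPKM + 0.1), which understates the changes of low genes. A gene is called higher or lower where that change reached 1.5-fold. Where values are given in pairs, normoxia comes first and hypoxia second.

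Interferons are secreted proteins that a cell releases when it senses viral or misplaced nucleic acid. Type I and type III interferons bind receptors that activate the kinases JAK1 and TYK2, which phosphorylate STAT2 among other proteins. STAT2 and IRF9 are subunits of the complex ISGF3, which binds the interferon-stimulated response element (ISRE) in promoters, whereas genes that respond to interferon gamma often hold a gamma-activated site (GAS). The induced genes encode proteins that block viral entry, degrade or bind viral RNA, modify proteins with ISG15 and feed back on the sensors, and many tumour lines carry a part of this set without added interferon.

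Promoters are shown first for the 5 members that passed the fold and had a RefSeq window, and for IFIT1, ISG15 and IFI27, which are set beside them below, because ISRE letters are a feature that most members share and that the list of names did not use. Each stretch lies upstream of a RefSeq start site (GRCh38.p14), is written 5′ to 3′ on the strand of the gene, and has its matches in capitals. The ISRE core was searched as GAAA, any 2 bases and GAAA again, which reads as a pair of TTTC where it lies on the other strand, and the GAS as TTCNNNGAA, which is its own reverse complement. Capitals mark the ISRE core in all but IRF1, where they mark the GAS.
IFIT3, first start (chr10:89327821-89327904, plus strand): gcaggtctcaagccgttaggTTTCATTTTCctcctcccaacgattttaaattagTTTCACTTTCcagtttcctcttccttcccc
IFIT3, second start (chr10:89332415-89332507, plus strand): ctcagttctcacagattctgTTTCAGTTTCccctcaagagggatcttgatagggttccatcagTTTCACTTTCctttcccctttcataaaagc
IFIT5 (chr10:89414503-89414567, plus strand): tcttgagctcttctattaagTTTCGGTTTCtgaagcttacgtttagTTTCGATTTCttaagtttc
RSAD2 (chr2:6877612-6877661, plus strand): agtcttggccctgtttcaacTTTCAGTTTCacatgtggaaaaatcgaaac
IRF1 (chr5:132490869-132490917, minus strand): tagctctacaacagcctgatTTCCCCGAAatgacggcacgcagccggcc
OAS3 (chr12:112938311-112938473, plus strand): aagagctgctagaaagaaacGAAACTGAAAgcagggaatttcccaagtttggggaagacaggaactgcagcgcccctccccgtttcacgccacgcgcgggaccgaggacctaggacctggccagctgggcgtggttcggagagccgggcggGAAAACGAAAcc
IFIT1 (chr10:89392487-89392549, plus strand): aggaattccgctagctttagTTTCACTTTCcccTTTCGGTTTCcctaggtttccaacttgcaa
ISG15 (chr1:1013364-1013419, plus strand): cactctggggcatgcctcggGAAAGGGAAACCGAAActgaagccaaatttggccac
IFI27 (chr14:94110608-94110670, plus strand): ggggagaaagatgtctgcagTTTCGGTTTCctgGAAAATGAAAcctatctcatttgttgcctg
IFIT3 has a pair of start sites with ISRE letters before each, and IFIT5, IFIT1, ISG15, IFI27 and OAS3 also hold more than 1 match.

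RefSeq windows from 250 bases before to 50 bases after the start were matched for 32 of the 40 members. IFIT2, USP18, OAS2, OASL, MX2, IFITM2, IRF7 and TRIM22 were not matched. An ISRE core was found in 22 of the 32 (68.8%), against 4.38% of all 27305 genes with a window and 3.57% of the 35116 windows. A GAS was found in 10 of the 32 (31.2%), against 9.38% of all genes, and in 5 of those members it overlapped an ISRE core. The core of the hypoxia response element (HRE), ACGTG, was found in 7 of the 32 (21.9%), against 24.9% of all genes. The ISRE and GAS shares describe genes that were listed for their interferon response, and the share with HRE letters lay near that of all genes. Counted per window, 44 of the 45 ISRE matches in members lay upstream of the start, and their median position was -95 bases from it. The windows of STAT2, RIGI, SAMD9L, HERC6, CMPK2 and XAF1 held neither ISRE nor GAS letters. The 21 members with an ISRE core and a value had a median change of 0.02 and a median level of 64.3 FPKM in normoxia, and the 10 without had 0.10 and 18.8 FPKM. A match of letters is a description of the sequence and not of a bound site.

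**Figure D1:**
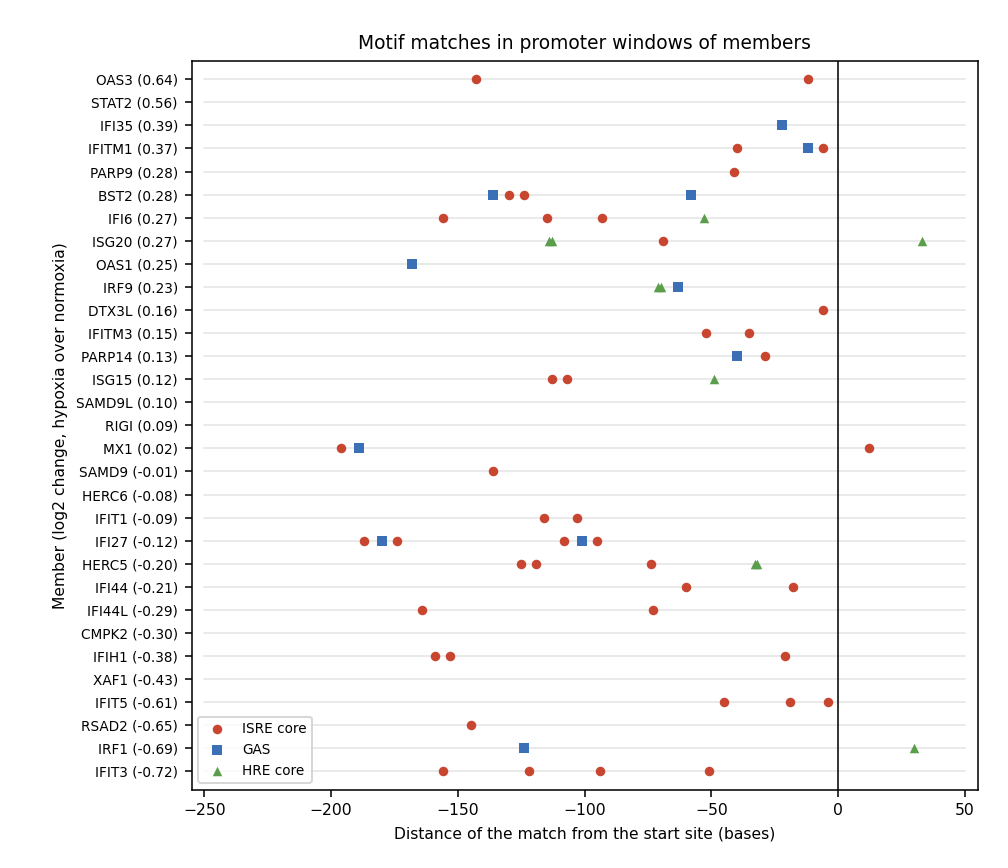
Matches to the ISRE core (circles), the GAS (squares) and the HRE core (triangles) in the promoter windows of 31 members with values, by distance from the start site in bases, with matches of several start sites drawn on 1 line. Members are ordered by their log2 change in hypoxia, given in parentheses, and ISRE matches occur among members at both ends of the order.

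As a check of the conditions, all 9 of 10 listed hypoxia response genes with rows were higher in hypoxia, from 2.02-fold for VEGFA, which encodes an angiogenic growth factor, to a log2 change of 5.58 for NDRG1, a stress-response gene. The others were CA9 (4.77 on the log2 scale), EGLN3 (3.93), ANKRD37 (3.85), BNIP3 (2.83), PDK1 (1.73), ADM (1.55) and SLC2A1 (1.36). The median of all 12120 genes was -0.07, and the FPKM of all named genes summed to 534095 in normoxia and 456965 in hypoxia. Scaling the columns to equal sums moved the median of all genes to 0.15, a shift that touches every call below, so changes are best read relative to that median. The median of the members lay above it by 0.09 as deposited, 0.10 with equal sums and 0.19 after quantile normalization. Squamous markers were present (KRT5, a basal keratin, at 398 FPKM in normoxia and 442 in hypoxia), with 8 of 10 listed, and 1 of them passed the fold, KRT6A at 5.10 and 3.26 FPKM. Of the markers of other cells, 5 of 10 leukocyte genes, 2 of 7 fibroblast genes and 1 of 5 endothelial genes had rows, with summed FPKM of 2.72 and 3.86, 0.175 and 0.210, and 4.78 and 2.83 in normoxia and hypoxia. The endothelial gene was CDH5, lower by the fold. PTPRC, CD3E, COL1A1 and PECAM1 were not analysed here, and neither were the squamous markers KRT14 and EGFR or the hypoxia response gene LDHA. A missing row is therefore not read as absence of expression. The part of these few markers of other cells in the results was not tested.

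In normoxia the members were already expressed. Their median level was 23.9 FPKM against 9.30 for all genes, 19 of 39 lay in the highest 25% of genes and 8 in the highest 10%, and 8 lay below the median gene. The highest was IFI6, a mitochondrial and endoplasmic reticulum protein that restrains apoptosis and flavivirus replication, at 357 FPKM in normoxia and 432 in hypoxia. The lowest were IRF7 at 0.609 and ISG20 at 1.00 FPKM in normoxia. Added over the 39 members, the FPKM was 2180 in normoxia and 2167 in hypoxia. That sum differed little while single members moved in both directions. The sum of all named genes was 534095 in normoxia and 456965 in hypoxia.

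Of the 39 members, 2 were higher by at least 1.5-fold (5.13%, against 9.94% of all genes) and 5 were lower (12.8%, against 11.2% of all genes). IRF7 and OAS3 were the higher ones, and IFIT3, IFIT5, OASL, IRF1 and RSAD2 the lower ones. Change was below 0 in 19 members (48.7%, against 56.4% of all genes) and above 0 in 20. The median change was 0.02, against -0.07 for all genes, and the quartiles of the members were -0.30 and 0.27. In 17 members (43.6%, against 43.3% of all genes) the levels differed by less than 1.2-fold, and in 15 by 1.2-fold to 1.5-fold. The share of lower calls lies near that of all genes. The share of higher calls lies below it, though it rests on 2 members and such shares differ by level (below). In all, 32 of the 39 members stayed within the fold. In bulk RNA, a change in the number of expressing cells and a change in RNA per cell cannot be told apart. The calls depended on scaling. With the columns scaled to equal sums no member was lower by 1.5-fold and 5 were higher. After quantile normalization 2 were lower and 5 higher. Both treatments move all genes, whose median went from -0.07 as deposited to 0.15 and -0.02. The shares of all genes past the fold were not computed for them, so these counts have no background. The members nearest to the limit were STAT2, 1.48-fold higher and just outside it, and IFIT5, 1.53-fold lower and just inside it.

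**Figure D2:**
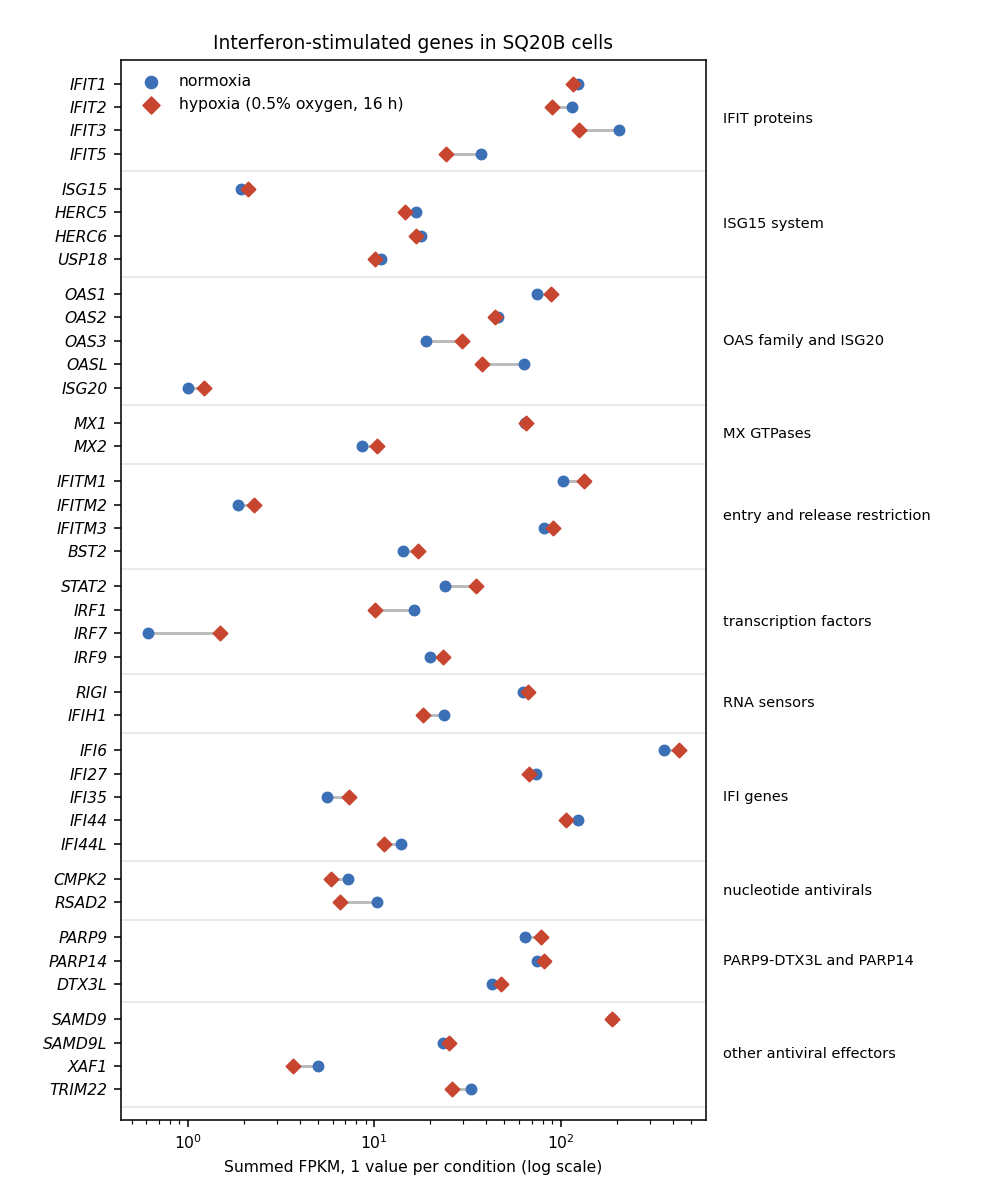
Summed FPKM of the 39 members with rows in normoxia (circles) and hypoxia (diamonds) on a log scale, 1 value per condition and so without error bars, grouped by role. The 4 IFIT genes sit lower in hypoxia as deposited (IFIT1 turns above 0 with equal sums and with quantile normalization). The 4 entry and release restriction genes sit higher, and IRF7 shows the widest gap, at a low level.

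Among all genes, calls of higher values were more frequent at low levels and calls of lower values at high levels. Among genes with a mean of 0.5 to 2 FPKM, 18.8% were higher by 1.5-fold and 7.96% lower, whereas among genes with a mean of 50 FPKM or more 3.77% were higher and 16.8% lower. IRF7 lies in the first of these ranges. The ranges between them, 2 to 10 and 10 to 50 FPKM, held 7 and 15 members. In those ranges 11.8% and 5.67% of all genes were higher, and 10.4% and 11.4% were lower. The 15 members at 50 FPKM or more had a median change of 0.02, and all 1778 genes in that range had a median of -0.27. Of those 15 members, 2 were lower (IFIT3 and OASL) and 0 were higher.

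The IFIT proteins bind viral RNA that lacks host cap modifications and hold back its translation. Their 4 genes lie together on chromosome 10 and all had lower values in hypoxia as deposited. IFIT1 turned to a value above 0 with equal sums (0.14, with all genes at a median of 0.15) and with quantile normalization (0.17). IFIT3 (chr10:91087576-91100725 in hg19) was at 207 FPKM in normoxia and 126 in hypoxia. It was 1.65-fold lower, a log2 change of -0.72, and only 6.85% of all genes ranked at or below it. IFIT5 (chr10:91174325-91180759) was at 37.2 FPKM in normoxia and 24.3 in hypoxia. Both had passed the fold as deposited, with IFIT5 at a log2 change of -0.61, and neither did with equal sums (-0.49 for IFIT3 and -0.39 for IFIT5) or quantile normalization (-0.47 and -0.48). IFIT2, at the end of the cluster next to IFIT3, was at 115 FPKM in normoxia and 89.9 in hypoxia. IFIT1 was at 124 and 117 FPKM, a log2 change of -0.09. The neighbours thus differed among themselves, with IFIT1 lying between IFIT3 and IFIT5 on the chromosome, 51.6 kb from the one and 8.08 kb from the other, and showing the smallest difference.

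The OAS proteins sense double-stranded RNA, and OAS1, OAS2 and OAS3 make the messenger that activates RNase L. They lie side by side on chromosome 12. OAS3 (chr12:113376249-113411054) was at 18.9 FPKM in normoxia and 29.5 in hypoxia. It was 1.55-fold higher, a log2 change of 0.64, and passed the fold as deposited, with equal sums (0.86) and with quantile normalization (0.76). OAS1 was at 74.9 and 89.1 FPKM and OAS2 at 46.1 and 44.7, changes of 0.25 and -0.04 that stayed within the fold. OASL, a relative without synthetase activity that aids RIG-I signalling, lies apart from them on the same chromosome (chr12:121458095-121477045). It was at 63.4 FPKM in normoxia and 38.1 in hypoxia, 1.66-fold lower, which was the lowest change of any member at -0.73 on the log2 scale. Its change was -0.51 with equal sums and -0.56 with quantile normalization, both inside the fold. Within 1 family of related sequence, OAS3 and OASL therefore lay near opposite ends of the members. ISG20, an exonuclease that degrades single-stranded RNA, was at 1.00 and 1.22 FPKM.

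The transcription factors of the response include the ISGF3 subunits STAT2 and IRF9 and the regulators IRF1 and IRF7. IRF1 (chr5:131817301-131826465), an early activator downstream of interferon gamma and cytokines, was at 16.3 FPKM in normoxia and 10.1 in hypoxia. It was 1.61-fold lower, a log2 change of -0.69, which became -0.47 with equal sums and -0.62 with quantile normalization. In current annotation 22.9% of its exon bases overlap IRF1-AS1 on the opposite strand, and whether the counting used strand is not given in the sources used here, so the reads of these partners may be mixed. IRF7 (chr11:612555-615999), the main amplifier of interferon alpha genes, was at 0.609 FPKM in normoxia and 1.496 in hypoxia. It was 2.25-fold higher on the scale with 0.1 added, a log2 change of 1.17, and passed the fold under every scaling tried, from 1.02 to 1.37. With a pseudocount of 1 in place of 0.1 the change was 0.63, still past the fold. Its level was at percentile 3.99 of all genes in normoxia and 14.7 in hypoxia. STAT2 was at 23.9 FPKM in normoxia and 35.4 in hypoxia. Its change of 0.56 lay just within the fold as deposited and passed it with equal sums (0.79) and quantile normalization (0.68). IRF9 was at 19.9 and 23.3 FPKM. Of the 4 factors, IRF1 was the lone one with a value below 0, under each scaling.

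RSAD2 and CMPK2 lie 11.0 kb apart on chromosome 2 and act on nucleotides, RSAD2 (viperin) by making a chain-terminating CTP analogue and CMPK2 as a mitochondrial nucleotide kinase. RSAD2 (chr2:7017796-7038363) was at 10.3 FPKM in normoxia and 6.54 in hypoxia. It was 1.57-fold lower, a log2 change of -0.65, which became -0.43 with equal sums and -0.63 with quantile normalization. CMPK2 was at 7.28 and 5.88 FPKM, a change of -0.30, and 97.1% of its normoxic value came from a noncoding transcript (NR_046236). Only that transcript and NM_001256477 entered the sum, other coding transcripts of CMPK2 were not analysed here, and the share is no measure of how much of its RNA is coding. Both were below 0 under each scaling, and in current annotation, with longer gene models, their exons overlap on opposite strands for 351 bases.

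The genes that restrict viral entry and release all had higher values in hypoxia, under each scaling, and none of the 4 passed the fold as deposited. IFITM1, IFITM2 and IFITM3 encode membrane proteins that hinder virus fusion. IFITM1 was at 103 FPKM in normoxia and 134 in hypoxia (log2 change 0.37), and passed the fold with equal sums (0.60) and quantile normalization (0.63). IFITM3 was at 81.7 and 90.9 FPKM and IFITM2 at 1.86 and 2.26. The IFITM genes are near-identical in part, and of the 50-base windows of the longest coding transcript, IFITM1 shared 12.3% and IFITM2 10.0% with genes elsewhere, so reads could have been split between them. BST2 (tetherin), which holds budding virions at the cell surface, was at 14.2 and 17.2 FPKM.

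The ISG15 system tags proteins with the ubiquitin-like modifier ISG15. ISG15 itself, among the most interferon-responsive genes in most cells, was at 1.93 FPKM in normoxia and 2.095 in hypoxia, and lay at percentile 19.6 of all genes in normoxia. That is low beside the other members, and its promoter holds 2 overlapping ISRE matches (above). Its ligase HERC5 was at 16.9 and 14.7 FPKM, the related HERC6 at 17.7 and 16.8, and the protease USP18, which removes ISG15 and dampens the receptor, at 10.8 and 10.1. All 4 lay within 1.2-fold. USP18 shared 27.0% of its 50-base windows with other genes, USP41 foremost, and its value is uncertain for that reason.

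The MX proteins are dynamin-like GTPases that trap viral nucleocapsids. MX1 was at 64.3 FPKM in normoxia and 65.4 in hypoxia, and MX2 at 8.56 and 10.3. The cytosolic RNA sensors RIGI (RIG-I) and IFIH1 (MDA5) lay on either side of 0. RIGI was at 62.5 and 66.7 FPKM, and IFIH1 at 23.8 and 18.3, a change of -0.38. PARP9 and DTX3L, which form an ADP-ribosyltransferase and ubiquitin ligase complex and are transcribed from opposite strands of 1 locus, were at 64.4 and 78.3 FPKM and at 43.1 and 48.1. PARP14, a mono-ADP-ribosyltransferase, was at 74.3 and 81.4 FPKM. These 3 were above 0 under each scaling and within the fold as deposited.

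Among the remaining members, IFI44 was at 124 FPKM in normoxia and 107 in hypoxia, and its neighbour IFI44L at 13.9 and 11.3. IFI35, a partner of NMI, was at 5.57 and 7.34 FPKM, a change of 0.39. SAMD9, a restriction factor of poxviruses, was at 189 and 188 FPKM, with a log2 change of -0.01 that was the closest to 0 of any member. Its paralogue SAMD9L was at 23.5 and 25.1 FPKM. TRIM22, an antiviral ubiquitin ligase, was at 32.9 and 26.2 FPKM. XAF1, a proapoptotic antagonist of XIAP, was at 5.00 and 3.67 FPKM, and 80.2% of its normoxic value came from a noncoding transcript (NR_046398). None of these passed the fold as deposited, and IFI35 did with equal sums (0.61). In current annotation another gene model on the same strand overlaps 43.2% of the exon bases of RIGI and 23.9% of those of IRF9. For IFI6 and IFITM1 the shares were 23.1% and 21.1%. The deposited values rest on RefSeq annotation of hg19, and whether these models bear on them was not tested.

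**Figure D3:**
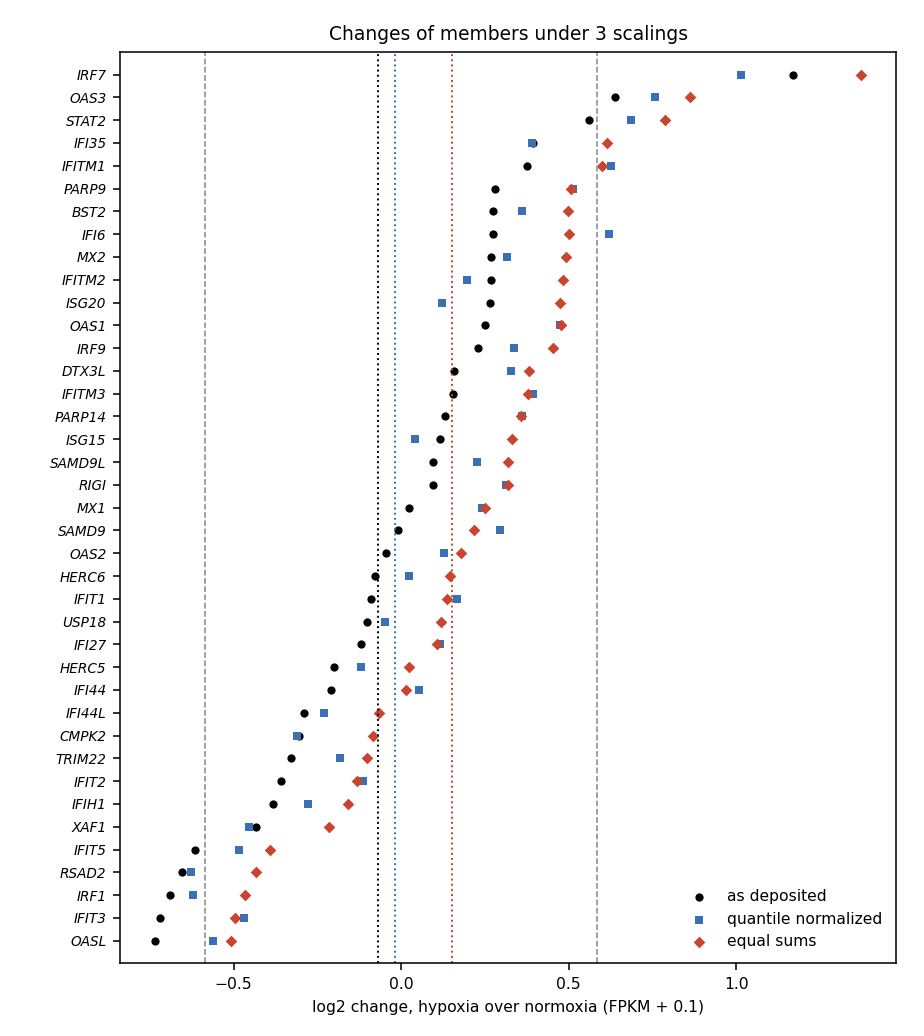
Log2 change of each of the 39 members with values as deposited (circles), after quantile normalization (squares) and with columns scaled to equal sums (diamonds), with dotted lines at the median of all genes under each scaling and dashed lines at 1.5-fold. IRF7 and OAS3 lie beyond the upper line under all 3, and no member lies beyond the lower line with equal sums.

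IFI27, which encodes a mitochondrial protein and is a common marker of interferon exposure, differed by transcript more than by gene. Its sum was 73.9 FPKM in normoxia and 68.1 in hypoxia. Transcript NM_005532 was at 20.2 FPKM in normoxia and 35.8 in hypoxia, and its share of the gene went from 27.3% to 52.6%. Transcript NM_001130080 was at 21.4 and 3.24 FPKM, and its share went from 29.0% to 4.76%. Transcript NM_001288956 was at 12.8 and 3.70 FPKM, and NM_001288995 at 16.9 and 22.6. The first pair moved in opposite directions past the fold, and the sum hid it. These transcripts overlap in 1 locus (chr14:94577079-94583036), the division of reads among them is an estimate of Cufflinks, and no error of that estimate was analysed here. Of the 8 listed IFI27 identifiers, 5 were assigned to the gene by their locus, since RefSeq of GRCh38.p14 did not hold them.

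Of the 74 member transcripts, 63 had a mean of at least 0.5 FPKM. Of these, 5 were higher by at least 1.5-fold, against 10.5% of 18190 transcripts in all, and 8 were lower, against 14.3%. In 12 members more than 1 transcript reached that level. In 7 of these members all such transcripts had the same sign, and in 5 (IFI27, IFIT1, MX1, OAS2 and SAMD9) the signs were mixed. For IFIT3, the transcript NM_001031683 was at 142 and 78.8 FPKM and NM_001549 at 64.0 and 46.3, both lower in hypoxia. Each IFIT3 start site shown has a pair of ISRE matches, and the transcripts were not assigned to start sites here. For OAS1, whose splice forms end in different carboxy termini, NM_016816 was at 39.9 and 48.4 FPKM, NM_002534 at 28.8 and 31.7, and NM_001032409 at 6.16 and 9.01. STAT2 had NM_005419 at 17.7 and 26.7 FPKM and NM_198332 at 6.24 and 8.70. For PARP9, NM_001146102 was at 6.91 and 11.6 FPKM, whereas the main transcript NM_001146105 was at 52.8 and 61.0. IFI6, the highest member, was carried by NM_002038 at 334 and 402 FPKM, with NM_022872 at 19.6 and 25.3 and NM_022873 at 2.91 and 3.84. For IFITM3 the coding NM_021034 was at 78.8 and 88.0 FPKM and the noncoding NR_049759 at 2.85 and 2.88. Among members with mixed signs, the main IFIT1 transcript NM_001548 was at 118 and 111 FPKM, NM_001270929 at 3.73 and 3.32, NM_001270928 at 1.51 and 1.49, and NM_001270930, the lone one with a value above 0, at 0.764 and 0.874. Of MX1, NM_002462 was at 59.2 and 60.3 FPKM, NM_001178046 at 3.92 and 3.63, and NM_001144925 at 1.14 and 1.504. In both genes the main transcript made up over 92% of the sum. Of OAS2, NM_016817 was at 21.5 and 21.9 FPKM, NM_002535 at 19.1 and 18.3, and NM_001032731 at 5.43 and 4.40. SAMD9 had NM_017654 at 169.5 and 171 FPKM and NM_001193307 at 19.2 and 16.4. No transcript of IFI6, IFITM3, IFIT1, MX1, OAS2 or SAMD9 given here passed the fold. Among those given for other members, NM_005419 of STAT2 and NM_001146102 of PARP9 were higher by the fold. NM_001031683 of IFIT3 and NM_017523 of XAF1 were lower by it. For XAF1, NR_046398 was at 4.01 and 2.92 FPKM and NM_017523 at 0.968 and 0.519. Outside IFI27, no member shifted a transcript's share by more than 7.61 percentage points, the value for IRF7.

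**Figure D4:**
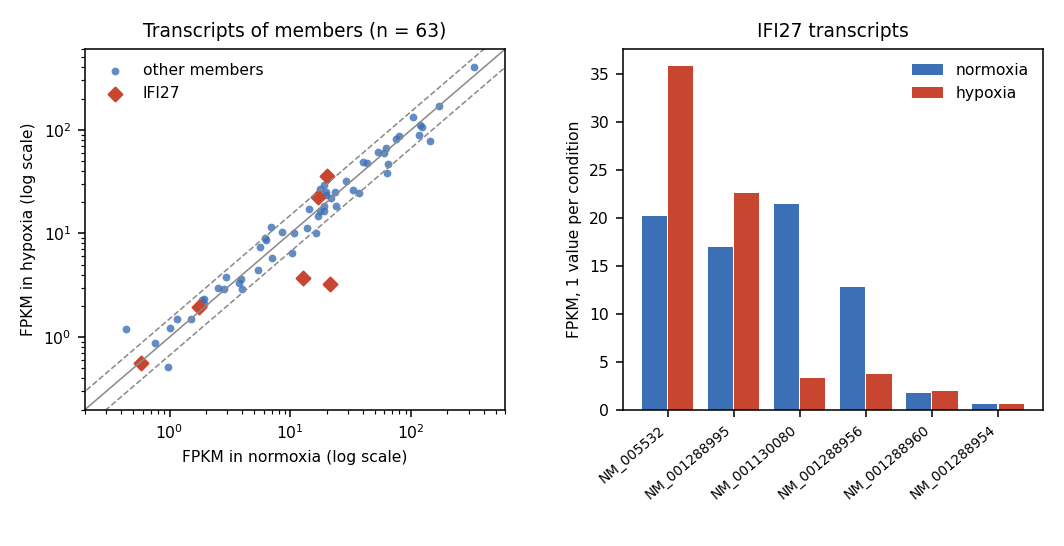
Left, FPKM in hypoxia against normoxia (both log scales) for the 63 member transcripts with a mean of at least 0.5 FPKM, with IFI27 as diamonds, the solid line at equality and dashed lines at 1.5-fold. Right, FPKM of the 6 IFI27 transcripts in that set, where NM_005532 is higher and NM_001130080 and NM_001288956 are lower in hypoxia.

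The rest of the pathway was read from lists of its parts. Of 9 interferon genes, 3 had rows and none reached a mean of 0.5 FPKM: IFNB1 (interferon beta) was at 0.205 FPKM in normoxia and 0.201 in hypoxia, IFNE at 0.245 and 0.340, and IFNK at 0.384 and 0.422. Transcripts of these ligands were thus near the bottom of the table in both conditions. All 6 receptor chains were expressed, none passed the fold, and their median change was 0.22. IFNAR1 and IFNAR2, the type I receptor, were at 9.61 and 11.0 FPKM and at 4.37 and 5.24. IFNGR1 and IFNGR2, the type II receptor, were at 64.6 and 63.5 FPKM and at 13.7 and 17.1. IFNLR1 and IL10RB, the type III receptor, were at 2.69 and 2.88 FPKM and at 16.2 and 20.6.

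Of 13 genes for JAK-STAT signalling and its inhibitors, 11 were used, 1 was higher by the fold (9.09%, against 9.94% of all genes) and 0 lower (against 11.2%). JAK1, the kinase common to all the interferon receptors, was at 45.7 FPKM in normoxia and 64.9 in hypoxia (log2 change 0.50). TYK2 was at 2.37 and 2.75 FPKM, and JAK2, the kinase specific to the type II receptor, lay below the limit at 0.151 and 0.141. PTPN6, the phosphatase SHP-1, was the 1 gene past the fold, at 3.01 and 4.86 FPKM.

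Of 14 genes for nucleic acid sensing, 12 were used, 2 were higher (16.7%, against 9.94% of all genes) and 0 lower (against 11.2%). STING1, the adaptor that cyclic dinucleotides activate, was at 3.43 FPKM in normoxia and 7.89 in hypoxia (log2 change 1.18). CGAS, which makes its cyclic dinucleotide, was at 34.9 and 24.2 FPKM, a change of -0.53 within the fold. So the enzyme and its adaptor had changes of opposite sign. TLR3, the endosomal receptor of double-stranded RNA, was at 6.09 and 11.1 FPKM, a change of 0.85. MAVS, the adaptor of RIG-I and MDA5, was at 15.7 and 17.9 FPKM, and IRF3, the factor that it activates, at 14.4 and 12.4.

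A further list of 45 interferon-stimulated genes outside the 40 had 43 members used, of which 3 were higher (6.98%, against 9.94% of all genes) and 2 lower (4.65%, against 11.2%), with a median change of 0.13. Both shares lie below those of all genes, but they rest on 3 and 2 genes and the difference was not tested. GBP2, a guanylate-binding GTPase, was at 10.6 FPKM in normoxia and 23.1 in hypoxia. CXCL10, a chemokine that draws T cells, was at 4.14 and 8.75 FPKM, and UBA7, the activating enzyme for ISG15, at 0.453 and 0.940. PNPT1, a mitochondrial exoribonuclease, was at 66.7 and 34.7 FPKM, and PSMB8, a subunit of the immunoproteasome, at 71.9 and 45.8.

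**Figure D5:**
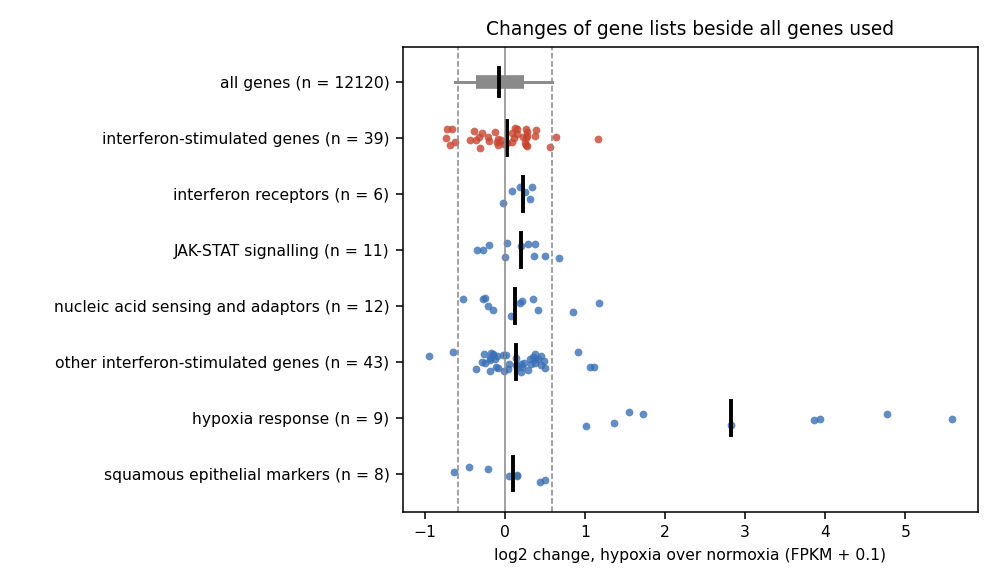
Log2 change of each gene used in 7 lists (points) beside all 12120 genes (thick bar, between the quartiles; thin line, from percentile 10 to percentile 90; vertical marks, medians), with dashed lines at 1.5-fold. The interferon-stimulated genes centre on 0.02 with 7 of 39 beyond the lines, and all 9 hypoxia response genes lie to the right of the upper line.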

How the data were processed

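RNA-seq of 8 samples (4 normoxia, 4 hypoxia) was used, grouped by their labels. Per the submitters' notes and the study's methods, the authors made stranded poly(A) libraries, aligned reads with STAR 2.3.0.1 to hg19 with RefSeq annotation and ran Cufflinks 2.1.1. The deposited FPKM values are 1 per condition over its 4 replicates and are printed as the authors' values. The table also holds the authors' log2 fold change, test statistic, p-value and q-value, which were not used. It has 0 columns of single samples, so the planned limma test was not run, and calls are folds without a test, SD or interval. The study's methods give an average number of aligned reads per sample, but not the exact depth of each library. The library number limits what any call shows.

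Identifiers were matched to symbols through RefSeq of GRCh38.p14 (24293 of 24812). A further 255 took the symbol of their locus where all matched identifiers there shared it, and 264 stayed unnamed. File starts, which count from 0, were raised by 1. FPKM was summed per gene, genes with a mean under 0.5 were left out, and log2 changes used a pseudocount of 0.1. Members and lists were chosen with earlier results of these data known. All 40 members are named with their values where they had rows, members with more than 1 transcript at 0.5 FPKM are described by transcript, and genes of other lists are named where they passed 1.5-fold, along with a fixed set (receptors, JAK1, JAK2, TYK2, IRF3, MAVS, CGAS and STING1). The values of 1 gene of that set are not reported here. Promoter windows came from RefSeq (GRCh38.p14). Shared sequence (50-base windows) and exon overlap came from GENCODE in GRCh37. Alternatives covered the pseudocount, the limit, the scaling, the transcripts summed, the naming and the fold. The scripts were tested on simulated data with known folds. Python 3.11.15, numpy 2.4.6, pandas 2.3.3 and matplotlib 3.10.9 were used.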

Additional observations from a re-analysis of the deposited data

How the results depend on the processing

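No paired analysis was possible because the table gives 1 value per condition, and for the same reason leaving out single replicates was not run. Among 59 alternative values of the 5 summary results, 44 moved by at most 0.1 in a median or 1.5-fold in a count. None of the 7 members called as deposited changed sign under the 5 alternatives run for single members. With columns scaled to equal sums, the median change of members was 0.25 against 0.15 for all genes. The median of the other interferon-stimulated genes was 0.36. In that setting 11 of 39 members lay below 0, against 36.2% of all genes. Of the members, 0 were lower by 1.5-fold and 5 were higher (IFI35, IFITM1, IRF7, OAS3 and STAT2). With quantile normalization the median of members was 0.17 against -0.02 for all genes. There 13 of 39 members lay below 0, against 51.5% of all genes. Of the members, 2 were lower (IRF1 and RSAD2) and 5 higher (IFI6, IFITM1, IRF7, OAS3 and STAT2). Centred on the median of all genes, 3 were lower (IFIT3, IRF1 and OASL) and 3 higher. The same deposited values entered each of these, so the lists differ only by how the columns were treated. IRF7 and OAS3 were higher in each. A mean of at least 5 FPKM left 1 member higher (OAS3). With the highest transcript per gene 4 were higher (IFI27, IRF7, OAS3 and STAT2). At 1.2-fold 11 were lower and 11 higher, and at 2-fold 0 were lower and 1 higher (IRF7). For these alternatives the shares of all genes called were not computed, so the counts of calls have no background. An alternative chosen after seeing the data, identifiers matched to RefSeq alone, gave 6 lower members by adding IFI27 at -2.29.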

Other observations

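Members that are next to each other within 200 kb form 14 adjacent pairs, some of which share a gene, overlap or share sequence. In 12 of these both changes had the same sign as deposited. The same share was not computed for neighbouring genes in general, so this count has nothing to be set against. IFI44L (-0.29 on the log2 scale) and IFI44 (-0.21), 3.65 kb apart on chromosome 1, were among the 12. Their signs were opposite with equal sums (-0.07 and 0.02) and after quantile normalization (-0.23 and 0.05). As deposited, 2 pairs had opposite signs. OAS3 (0.64) and OAS2 (-0.04) lie 5.22 kb apart on chromosome 12. SAMD9 (-0.01) and SAMD9L (0.10) lie 12.03 kb apart on chromosome 7. In both pairs 1 of the changes lay near 0. Each change compares 1 value per condition, given over 4 replicates whose spread is not available.

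Across the 39 members, the normoxic level and the change had a Spearman rho of -0.13, as a description across genes, which share the same libraries and whose normoxic value enters both measures.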
